A study of Oryza sativa Japonica Group with 15 samples.

Results

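Rice plants of the cultivar Kitaake (Oryza sativa, Japonica Group) that had received 2 leaf sprays of piperonylic acid were compared with plants that had received 1, and expression was read in the roots. Piperonylic acid (PA) is a small molecule that inhibits cinnamate 4-hydroxylase (C4H), the enzyme that turns cinnamic acid into coumaric acid in the phenylpropanoid pathway. PA2x plants were sprayed with 300 µM PA on days 7 and 13 after transplantation, and PA1x plants with 300 µM PA on day 13, and all roots were taken on day 14. Each of the 3 libraries per group held the pooled roots of 4 plants. No label says whether the pools of a group were grown or treated apart, so that p-values measure the spread between these pools only. The comparison rests on 6 of the 15 libraries of the series, taken by their labels. Mock plants, a reference level here, had 3 libraries and a spray on day 13 without an active compound named in their labels. The remaining libraries came from plants sprayed on day 13 with other inducers, BABA at 3.5 mM or BTH at 250 µM. These libraries enter the filter and the fit below. The sprays contained the detergent Tween 20. The labels list no day 7 spray for PA1x or mock, so that an additional dose of PA, an additional spray with the solvent and a longer time since the first contact cannot be told apart.

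Resistance inducers are known for bringing plants into a state in which salicylate, jasmonate and phenylpropanoid genes respond more readily. In rice, salicylate acts through the co-activator NPR1 and the transcription factor WRKY45, and several other WRKY proteins restrain or support these genes. Jasmonate is made from linolenic acid by allene oxide synthase, allene oxide cyclase and oxophytodienoate reductase, joined to isoleucine by JAR1 and read by COI1 receptors. The receptors remove JAZ repressors, and JAZ genes are themselves jasmonate-induced. The phenylpropanoid pathway starts with phenylalanine ammonia-lyase (PAL), continues with C4H and coumarate ligase (4CL), and feeds lignin and flavonoids.

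The libraries were made with QuantSeq, a method that reads the 3′ end of each transcript, and held 6576300 to 8364583 reads in PA1x, 4851344 to 6815702 in PA2x and 7392515 to 9480830 in mock, as recovered from the deposited values. Values below are the authors' normalised read counts, reads divided by 1 size factor per library, and genes with a mean of at least 5 over the 15 libraries were tested, 18316 of 36747 features. The root gene RCc3 (Os02g0662000) had 9565 to 13506 normalised reads in PA1x and 9386 to 13327 in PA2x. The other root marker in the lists, RCc2 (Os02g0662100), was at 0 in every mock, PA1x and PA2x library and was not tested. The 4 green leaf markers had a summed level of 16.9 to 284 in PA1x, 5.31 to 43.8 in PA2x and 15.3 to 280.5 in mock, none of them at 0 throughout a group, with PA1x replicate 2 highest among the PA libraries. Without that library 1508 genes were called in place of 2065, and without any other PA library but PA2x replicate 3 it was 1385 to 1524. The part of leaf RNA in the results was not tested. As in any whole root, fewer cells of a type and less RNA per cell cannot be told apart. The 3 reference genes, an actin gene and 2 genes of the ubiquitin pathway, had log2 fold changes of -0.14 to 0.00 and were not called. Of 186 genes in 20 lists by pathway or cell type 185 were in the table and 169 were tested, and those in the table but not tested had a mean under 5.

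After the additional spray, expression was higher in PA2x than in PA1x at 1522 genes (8.31% of those tested) and lower at 543 (2.96%), 2065 in all (11.3%; limma with a trend on log2(value + 1), all 15 libraries in 1 fit, two-sided, Benjamini-Hochberg adjusted p under 0.05). The genes called higher had a median log2 fold change of 0.91, and 644 of them were at least 2-fold higher (3.52% of the tested genes). Those called lower had a median of -0.81, with 173 at least 2-fold lower (0.945%). The median over all tested genes was -0.02. The calls were unevenly spread over expression levels. In the class of 1135 genes averaging 1000 or more normalised reads in the PA libraries, 23.6% were called higher, and in the class of 4273 genes averaging under 20 it was 1.87%. The share called lower was between 1.71% and 3.66% in every class. In 2056 of the 2065 called genes the 3 PA2x values lay on 1 side of the 3 PA1x values, a separation that 28.2% of all tested genes showed.

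The balance of higher and lower calls depended on how libraries were scaled. The deposited values summed to 5932277 to 6170660 in PA1x and 6509468 to 6940018 in PA2x. When all libraries were brought to the same sum, the median log2 fold change of all genes shifted by -0.15, and 1132 genes were higher and 1134 lower, 50.0% higher in place of 73.7%. Fold changes below are relative to the median gene of the deposited scale. On that scale 12 of 14 salicylate and WRKY members, 15 of 22 jasmonate members and 8 of 13 phenylpropanoid members were higher, against 8.31% of all tested genes. At equal sums it was 11, 14 and 8, against 6.18%. The jasmonate members called lower went from 1 to 3, while the share of all tested genes called lower went from 2.96% to 6.19%.

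**Figure D1:**
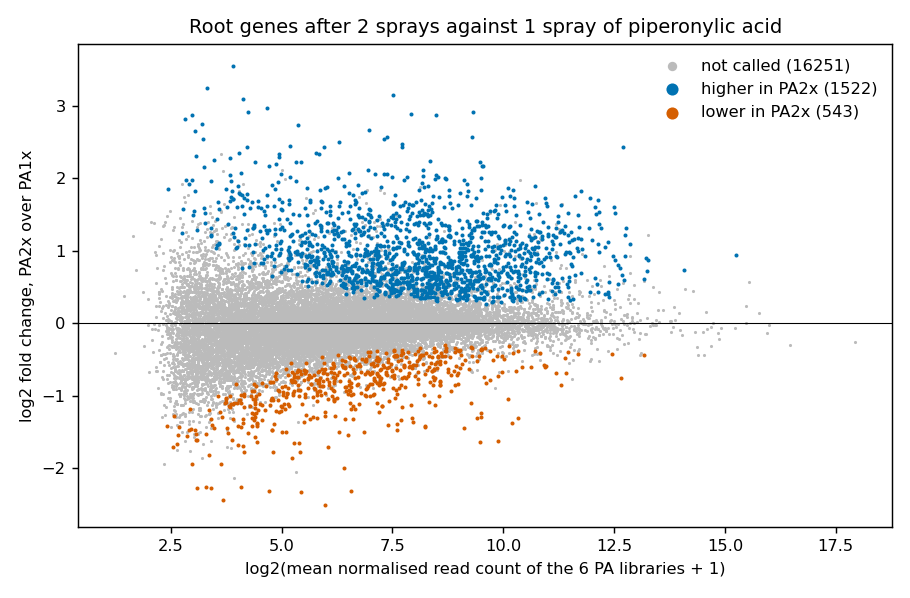
Log2 fold change of PA2x over PA1x for each of the 18316 tested genes (vertical axis) against the log2 of their mean normalised read count in the 6 PA libraries plus 1 (horizontal axis). Blue points are the 1522 genes called higher, orange points the 543 called lower and grey points the rest; blue points outnumber orange ones most among abundant genes.

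PA1x libraries resembled each other more closely than PA2x libraries did. The median SD of log2 values within a group was 0.16 over all tested genes in PA1x and 0.24 in PA2x. PA2x replicate 3 stood apart from the other 2: it was the lowest of its group in 55.4% of the genes called higher, against 38.0% of all tested genes. It also had the fewest reads of the 6 PA libraries, 4851344. Without it 1710 genes were higher and 617 lower, and leaving out any other PA library gave 1115 to 1225 higher and 257 to 409 lower. The number of lower genes moved most, to 321, 283 and 257 without PA1x replicate 1, 2 or 3 and to 338 without PA2x replicate 2.

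The salicylate and defence WRKY genes were higher as a group, 12 of 14 tested members, with none lower, against 8.31% of all genes. WRKY76 (Os09g0417600), a WRKY factor known to restrain rice defence genes, had 73.3, 102 and 94.1 normalised reads in PA1x replicates 1, 2 and 3 and 352, 326 and 413 in PA2x. All PA2x values were more than 3-fold above every PA1x value, whereas mock, at 95.5 to 116, was near PA1x. The rise was 4.04-fold (log2 fold change 2.01 ± 0.13 SE, adjusted p = 2.38e-07). Its neighbour WRKY62 (Os09g0417800), also a known negative regulator, was at 23.4, 48.7 and 28.1 in PA1x and 66.2, 65.8 and 55 in PA2x (log2 fold change 0.95 ± 0.21 SE, adjusted p = 0.00567), with mock at 24.3 to 28.7. PA1x replicate 2 was the closest to the PA2x values of WRKY62, but the groups did not overlap.

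WRKY28 (Os06g0649000) and WRKY71 (Os02g0181300), the remaining members of the WRKY subgroup that holds WRKY62 and WRKY76, were more abundant. WRKY28 had 2599.6, 2746 and 2316 normalised reads in PA1x and 6260.1, 7432 and 6074 in PA2x (log2 fold change 1.36 ± 0.13 SE, adjusted p = 3.56e-06). WRKY71 had 1818, 1829.5 and 2047 in PA1x and 4108, 3881 and 4747 in PA2x (log2 fold change 1.16 ± 0.14 SE, adjusted p = 2.9e-05). For these 2 genes the mock values lay between the groups, at 3827 to 4005 for WRKY28 and 2697 to 3074 for WRKY71. In WRKY76 and WRKY62, in contrast, mock overlapped the PA1x range.

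WRKY45 (Os05g0322900), a central regulator of rice defence downstream of salicylate, had 567, 682 and 709 normalised reads in PA1x, 1149, 1189.6 and 1328 in PA2x and 906, 845 and 917 in mock. The 3 groups did not overlap, with PA1x lowest and PA2x highest, and PA2x was 1.88-fold above PA1x (log2 fold change 0.91 ± 0.10 SE, adjusted p = 1.2e-05). The NPR family moved with it. NPR3 (Os03g0667100), a paralogue of NPR1, had 151, 164 and 136 in PA1x and 286, 299 and 361 in PA2x (log2 fold change 1.06 ± 0.13 SE, adjusted p = 3.09e-05). NPR1 (Os01g0194300) was at 309, 282 and 253 against 520.3, 488 and 350.2 (log2 fold change 0.67 ± 0.17 SE, adjusted p = 0.0139), and PA2x replicate 3 was the PA2x library nearest to PA1x. NPR1 did not pass without PA1x replicate 3 or PA2x replicate 1 or 2 (adjusted p 0.0648 to 0.0764), and NPR2 (Os01g0767900, log2 fold change 0.44, adjusted p = 0.031) lost its call on removal of any PA library but PA2x replicate 2 (0.0559 to 0.145). NPR2 also did not pass at equal library sums (0.133).

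WRKY24, WRKY53 and WRKY70 belong to another WRKY group, in which WRKY53 is known as a positive regulator of defence against fungi. WRKY70 (Os05g0474800) had 444, 583 and 507 normalised reads in PA1x and 2185, 2014 and 1391 in PA2x (log2 fold change 1.85 ± 0.21 SE, adjusted p = 2.37e-05). WRKY24 (Os01g0826400) had 443, 484 and 431 and 1848, 1809 and 1043 (log2 fold change 1.74 ± 0.25 SE, adjusted p = 0.000187). In these genes PA2x replicate 3 was again the lowest of its group, yet above every PA1x library. WRKY53 (Os05g0343400) rose 1.89-fold (adjusted p = 7.84e-05) and WRKY74 (Os09g0334500) 1.72-fold (adjusted p = 0.000539). WRKY78 (Os07g0583700) and WRKY13 (Os01g0750100) were the 2 tested members with negative values, -0.18 and -0.15, and did not pass (adjusted p = 0.398 and 0.597). WRKY30 was under the filter.

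**Figure D2:**
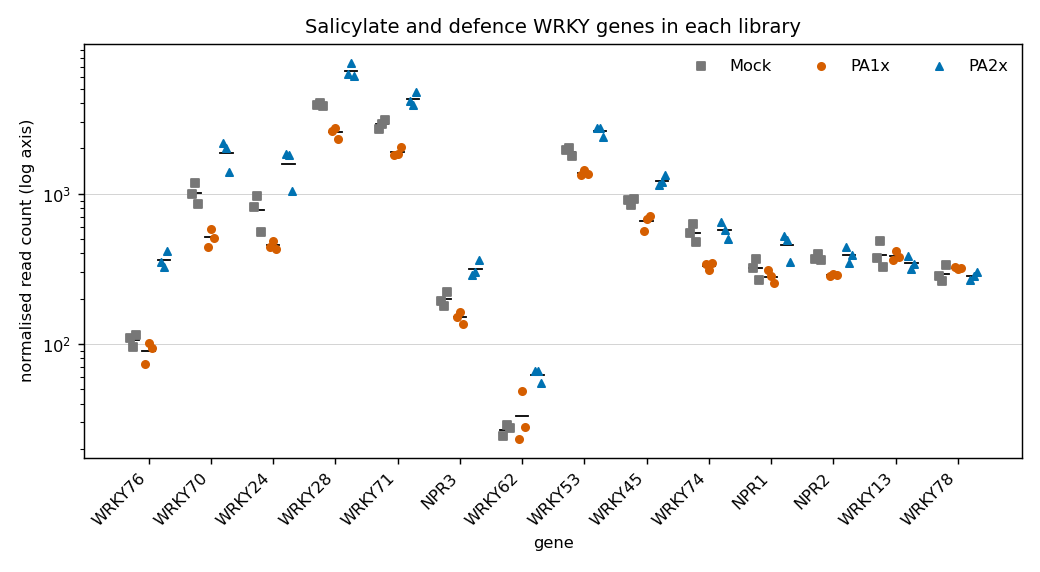
Normalised read counts (vertical axis, logarithmic) of the 14 tested salicylate and defence WRKY genes (horizontal axis, ordered by fold change) in each mock (grey squares), PA1x (orange circles) and PA2x (blue triangles) library, with black lines at group means. The PA2x points lie above the PA1x points in the 12 called genes, from WRKY76 with 73.3 to 102 against 326 to 413 to NPR2.

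Among jasmonate genes 15 of 22 tested members were higher in PA2x and 1 was lower, against 8.31% and 2.96% of all tested genes. OPR1 (Os06g0216300), listed as an oxophytodienoate reductase gene, had 101, 144 and 108 normalised reads in PA1x and 481, 361 and 521 in PA2x. Every PA2x value was more than 2-fold above every PA1x value, and mock lay between the groups at 274 to 359 (log2 fold change 1.94 ± 0.18 SE, adjusted p = 3.47e-06). Among genes known to act in jasmonate synthesis, AOC (Os03g0438100), which encodes allene oxide cyclase, was at 1132, 1081 and 1119.8 against 1769, 2026 and 1528 (log2 fold change 0.67 ± 0.11 SE, adjusted p = 0.000497). The allene oxide synthase gene AOS1 (Os03g0767000) rose 2.21-fold (adjusted p = 0.00128), and OPR7 (Os08g0459600), the reductase known to act in jasmonate synthesis in rice, 1.56-fold (adjusted p = 0.00984, and 0.0603 without PA2x replicate 2).

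AOS2 (Os03g0225900) showed how far libraries numbered 3 could differ from the others. It had 1125, 1249.7 and 711 normalised reads in PA1x and 3346, 3450 and 993 in PA2x. PA2x replicate 3 thus fell inside the PA1x range, and the gene did not pass (log2 fold change 1.17 ± 0.59 SE, adjusted p = 0.262). Mock was at 1492, 2782 and 937, so that replicate 3 was the lowest library of mock, PA1x and PA2x alike. JAR1 (Os05g0586200), which joins jasmonate to isoleucine, had 238, 244 and 243 in PA1x and 410.4, 334 and 428 in PA2x (log2 fold change 0.68 ± 0.11 SE, adjusted p = 0.000424). Mock was at 209 to 258, a range that held all 3 PA1x values. JAR1 thus had mock at the PA1x level, whereas OPR1 had mock in between.

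JAZ repressor genes made up 10 of the 15 higher members. JAZ13 (Os10g0391400) had 773, 762 and 795 normalised reads in PA1x and 2599, 2631 and 2116 in PA2x, with mock between them at 1230.1 to 1698 (log2 fold change 1.65 ± 0.13 SE, adjusted p = 1.3e-06). JAZ6 (Os03g0402800) had 581, 647 and 628 and 1283, 1192 and 1361 (log2 fold change 1.05 ± 0.12 SE, adjusted p = 1.97e-05). JAZ10 (Os03g0181100) had 2451, 2654 and 2478 and 6381, 5446 and 5123 (log2 fold change 1.15 ± 0.14 SE, adjusted p = 4.17e-05). It stands close on chromosome 3 to JAZ9 (Os03g0180800) and JAZ11 (Os03g0180900), which rose 2.48-fold and 2.53-fold (adjusted p = 0.0015 and 0.00977), and near copies in this cluster may share reads. JAZ4 (Os09g0401300) rose 1.53-fold (adjusted p = 0.000395) and JAZ7 (Os07g0615200) 1.55-fold (adjusted p = 0.00576).

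The remaining JAZ genes were less firmly separated. JAZ12 (Os10g0392400) and JAZ5 (Os04g0395800) had log2 fold changes of 1.23 and 1.34 (adjusted p = 0.0155 and 0.0108), and JAZ1 (Os04g0653000) of 0.34 (adjusted p = 0.0263). Without PA2x replicate 2, JAZ5 did not pass (0.0603). JAZ11 did not pass without PA1x replicate 3 or PA2x replicate 1 (0.0526 and 0.0502), and JAZ12 without PA1x replicate 3 or PA2x replicate 1 or 2 (0.0667 to 0.0795). JAZ1 did not pass without PA1x replicate 1 or 3 or PA2x replicate 1 or 2 (0.0824 to 0.117), nor at equal library sums (0.216). JAZ8 and JAZ3, the other tested JAZ genes, did not pass, with log2 fold changes of 0.48 and -0.26 (adjusted p = 0.0607 and 0.0737).

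The receptor genes had negative values. COI1b (Os05g0449500), a jasmonate receptor gene, had 752, 794 and 848 normalised reads in PA1x and 501, 536 and 635 in PA2x and was lower (log2 fold change -0.52 ± 0.13 SE, adjusted p = 0.0155). It did not pass without PA1x replicate 3 or PA2x replicate 1 or 2 (0.0589 to 0.0785). COI1a and COI2 had log2 fold changes of -0.31 and -0.23 (adjusted p = 0.194 and 0.303). At equal library sums COI1a, COI1b and JAZ3 were lower. MYC2 (Os10g0575000), the transcription factor that JAZ proteins hold back, was at 1007, 1058 and 1033 in PA1x and 1098, 1238 and 1174 in PA2x (log2 fold change 0.18 ± 0.09 SE, adjusted p = 0.269). The 95% interval of its log2 difference was -0.01 to 0.37, and the groups did not overlap.

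**Figure D3:**
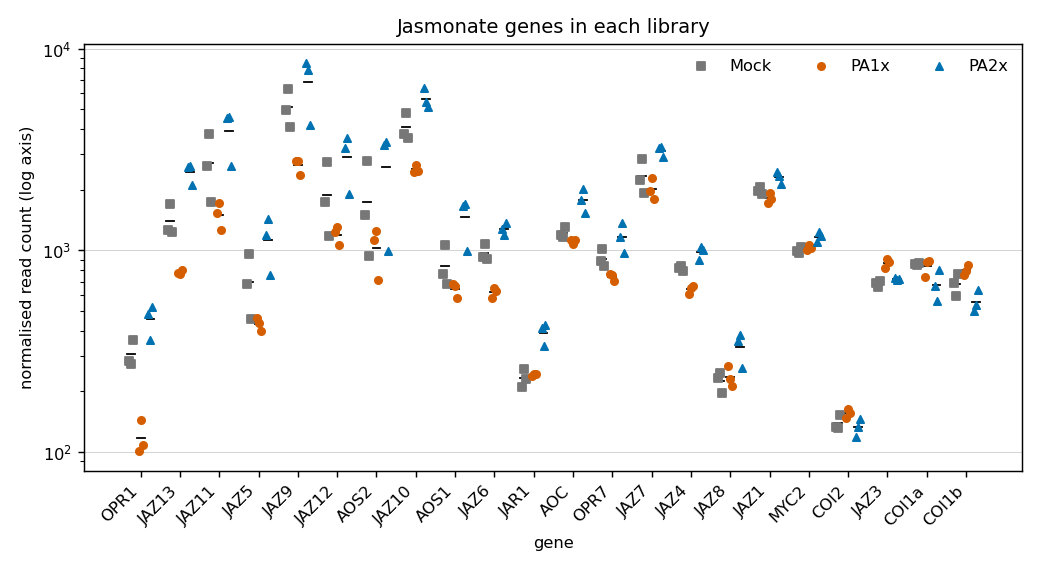
Normalised read counts (vertical axis, logarithmic) of the 22 tested jasmonate genes (horizontal axis, ordered by fold change) in each mock (grey squares), PA1x (orange circles) and PA2x (blue triangles) library, with black lines at group means. OPR1 has the largest log2 fold change of the list, 1.94, from 101 to 144 in PA1x to 361 to 521 in PA2x, and in AOS2 1 PA2x library lies among the PA1x values.

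Of the general phenylpropanoid genes 8 of 13 tested members were higher in PA2x and none was lower, against 8.31% and 2.96% of all tested genes. The PAL family was split. PAL1 (Os02g0626100), its most abundant gene, had 37228, 40258 and 39182 normalised reads in PA1x and 35700.5, 38928 and 37006 in PA2x, overlapping ranges (log2 fold change -0.06 ± 0.14 SE, adjusted p = 0.855; 95% interval -0.37 to 0.24). PAL4 (Os02g0627100) had 1468, 1481 and 1372 in PA1x and 4543, 4431 and 3509 in PA2x, with mock between them at 2121 to 2920.01 (log2 fold change 1.52 ± 0.15 SE, adjusted p = 7.23e-06). PAL3 (Os02g0626600) was at 107, 124 and 85.1 against 359, 362 and 288 (log2 fold change 1.67 ± 0.20 SE, adjusted p = 2.44e-05). The gap between the groups in PAL3 and PAL4 was thus more than 2-fold in every pair of libraries, in genes that lie close to PAL1 on chromosome 2.

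PAL6 (Os04g0518400), on chromosome 4, was at 55.6, 59.8 and 53.4 in PA1x and 155, 163 and 123 in PA2x (log2 fold change 1.36 ± 0.15 SE, adjusted p = 1.12e-05). PAL2 (Os02g0626400) had 4290.4, 4787 and 4247 and 8695, 7797 and 6839 (log2 fold change 0.80 ± 0.17 SE, adjusted p = 0.00426). PAL7 (Os05g0427400) had 64.4, 56.1 and 59.7 and 174, 144 and 103 (log2 fold change 1.18 ± 0.30 SE, adjusted p = 0.0166). All 5 genes were thus higher in every PA2x library than in any PA1x library. PAL7 did not pass without PA1x replicate 2 or 3 or PA2x replicate 1 or 2 (0.0554 to 0.0836), and near copies of PAL genes can share reads.

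C4H, the enzyme that PA inhibits, is encoded by genes of which 3 were tested. C4H1 (Os05g0320700), the most abundant of them, had 1502, 1703 and 1326 normalised reads in PA1x and 2425, 2036 and 1155 in PA2x, with PA2x replicate 3 below every PA1x library (log2 fold change 0.25 ± 0.28 SE, adjusted p = 0.671; 95% interval -0.34 to 0.84). C4H4 (Os02g0467600) had 259, 283 and 233 and 1453, 1433 and 750.1, and even the lowest PA2x value was more than 2-fold above PA1x (log2 fold change 2.17 ± 0.37 SE, adjusted p = 0.000791). Mock spread over 346 to 888. C4H3 (Os02g0467000), close to C4H4 on chromosome 2, was nearly silent in PA1x, at 3.22, 1.48 and 0.905, and at 14.3, 17 and 13.4 in PA2x (log2 fold change 2.54 ± 0.43 SE, adjusted p = 0.000777). In PA1x only replicate 1 exceeded the level of 3 reads taken as the floor, which is 2.21 to 2.72 normalised reads, and with reads thinned to the smallest library C4H3 did not pass (adjusted p = 0.0616). C4H2 had no read in any PA library, where a level of up to 3 reads would go unseen.

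Among coumarate ligase genes 4CL5 (Os08g0448000) had 777, 778 and 731 normalised reads in PA1x and 2507, 2660.5 and 1610.1 in PA2x (log2 fold change 1.53 ± 0.23 SE, adjusted p = 0.00029). The most abundant, 4CL3 (Os02g0177600), was at 6693, 6653 and 6647 and 9187, 9078 and 6332, with 2 PA2x libraries above PA1x and replicate 3 below it (log2 fold change 0.28 ± 0.21 SE, adjusted p = 0.491). 4CL1 and 4CL4 had log2 fold changes of -0.53 and 0.09 and did not pass (adjusted p = 0.232 and 0.745). None of the 11 lignin and cellulose synthase genes was called, against 11.3% of all tested genes. Only the lignin genes among them lie downstream of 4CL. The log2 fold changes of the 11 genes ran from -0.33, for the secondary wall cellulose synthase gene CESA9 (Os09g0422500, adjusted p = 0.374), to 0.07. The lignin genes alone ran from -0.12 to 0.02. COMT1 (Os08g0157500), a methyltransferase of lignin synthesis, had 20898, 23482 and 20095 in PA1x and 20852, 20868 and 17784 in PA2x.

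**Figure D4:**
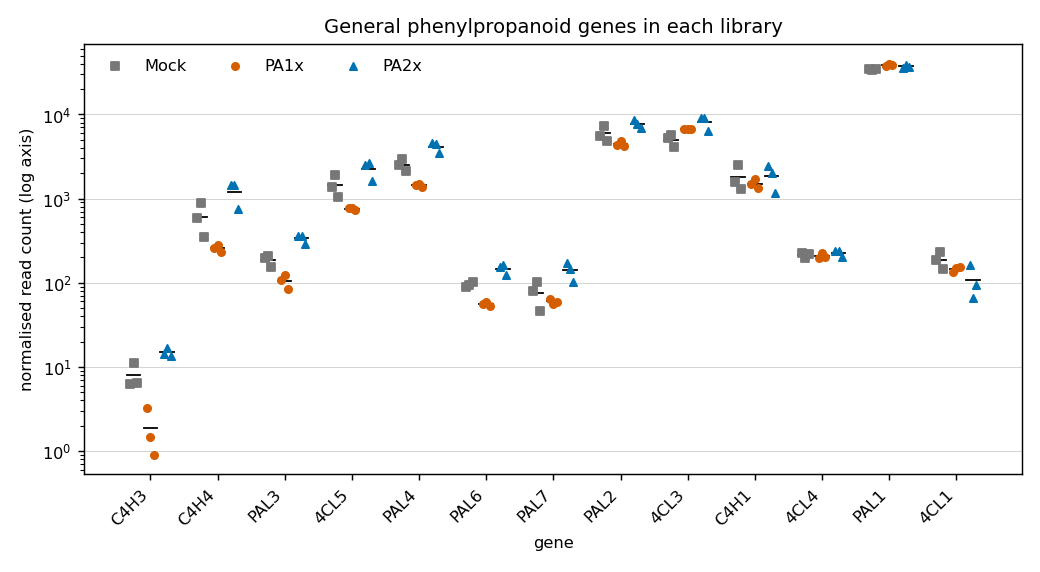
Normalised read counts (vertical axis, logarithmic) of the 13 tested general phenylpropanoid genes (horizontal axis, ordered by fold change) in each mock (grey squares), PA1x (orange circles) and PA2x (blue triangles) library, with black lines at group means. C4H3 and C4H4 have the largest fold changes of this list, log2 2.54 and 2.17, while PAL1, at 37228 to 40258 in PA1x, overlaps between the groups.

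Diterpenoid phytoalexin genes, which make momilactones and phytocassanes, had positive values in all 13 tested members and no call, against 11.3% of all tested genes called. KSL10 (Os12g0491800), a diterpene synthase gene and the member with the largest value, had 36.3, 59.8 and 18.1 normalised reads in PA1x and 129, 140.1 and 34.9 in PA2x (log2 fold change 1.31 ± 0.73 SE, adjusted p = 0.324). With the replicate number added to the limma fit, KSL10 passed in the 6 PA libraries alone (adjusted p = 0.000647) and not in all 15 libraries. MAS (Os04g0179200), a momilactone synthase gene, had 1288, 1339 and 551 and 3711, 3284 and 848 (log2 fold change 1.15 ± 0.77 SE, adjusted p = 0.426). In these genes replicate 3 was the lowest library of mock, of PA1x and of PA2x, and PA2x replicate 3 was the lowest of PA2x in all 13 members. The chalcone synthase gene CHS1 (Os11g0530600), the entry to flavonoids, showed the same spread, with 1842, 1306 and 566 in PA1x and 3881, 6221 and 763 in PA2x (log2 fold change 1.25 ± 0.83 SE, adjusted p = 0.42). Without PA2x replicate 3 the median log2 fold change of the diterpenoid list was 1.53 in place of 0.87. In that fit 2 of the 13 members passed, where 9.34% of all tested genes were higher. The 2 members were the cytochrome P450 gene CYP76M8 (Os02g0569400, adjusted p = 0.047) and the transcription factor gene DPF (Os01g0196300, 0.0493). Without replicate 3 of both groups the list median was 1.10 and no member passed, against 6.69% of all tested genes higher. NOMT (Os12g0240900), which makes the phytoalexin sakuranetin, had 0.806, 2.95 and 0.905 normalised reads in PA1x and 16.3, 10.6 and 2.68 in PA2x. PA1x replicates 1 and 3 and PA2x replicate 3 were under the floor of 3 reads. Its log2 fold change was 1.92 and it did not pass (adjusted p = 0.138). It passed with DESeq2 on the recovered reads (2.65, adjusted p = 0.04) and without PA2x replicate 3 (2.57, 0.0454), and it did not pass without replicate 3 of both groups (2.41, 0.126).

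Pathogenesis-related genes gave 1 call among 7 tested members, a share of 14.3% that was near the 11.3% of all tested genes. The chitinase gene Cht8 (Os10g0542900) had 83.8, 57.5 and 85.1 normalised reads in PA1x and 102, 108 and 123 in PA2x (log2 fold change 0.57 ± 0.16 SE, adjusted p = 0.0274), and it did not pass without PA1x replicate 2 or PA2x replicate 2 or 3 (0.0658 to 0.155) or at equal library sums (0.137). PR1a (Os07g0129200), a common marker of salicylate responses, was at 3621, 3989 and 2327 in PA1x and 5262, 6593 and 2851 in PA2x, overlapping ranges (log2 fold change 0.52 ± 0.36 SE, adjusted p = 0.444; 95% interval -0.24 to 1.28). Leaving out 1 PA library put the value of PR1a between 0.26, without PA2x replicate 2, and 0.87, without PA2x replicate 3, and it did not pass in any of these fits. Without PA1x replicate 3 it was 0.28. PBZ1 (Os12g0555500), a PR10 gene, had 52192, 62233 and 40663 and 63377, 80269 and 34751 (log2 fold change 0.14 ± 0.43 SE, adjusted p = 0.9).

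In ethylene synthesis 3 of 5 tested members were higher, against 8.31% of all tested genes, and 2 of these 3 calls were lost on removal of single libraries. ACS1 (Os03g0727600), an aminocyclopropane carboxylate synthase gene, had 4.03, 5.16 and 8.15 normalised reads in PA1x and 25.5, 17 and 21.5 in PA2x (log2 fold change 1.75 ± 0.33 SE, adjusted p = 0.00166). Mock was higher than either, at 34.7 to 37.8. In the same limma fit PA1x was lower than mock (log2 fold change -2.52, adjusted p = 0.000565). PA2x did not pass against mock (-0.78, 0.347), although all its values lay under the mock range. ACS2 (Os04g0578000) had 454, 491 and 381 in PA1x and 2332, 2135 and 839 in PA2x (log2 fold change 1.87 ± 0.48 SE, adjusted p = 0.0167) and did not pass without PA1x replicate 1 or 3 or PA2x replicate 1 or 2 (0.0503 to 0.0836). An aminocyclopropane carboxylate oxidase gene (Os09g0451400) was at 10.5, 16.2 and 15.4 and 23.4, 23.3 and 29.5 (log2 fold change 0.83 ± 0.26 SE, adjusted p = 0.0475), a call lost whichever PA library was left out (0.0615 to 0.199).

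Of 7 tested abscisic acid genes 2 were higher, 1 of synthesis and 1 of breakdown, against 8.31% of all tested genes. NCED4 (Os07g0154100), which encodes a dioxygenase of abscisic acid synthesis, had 134, 128 and 198 normalised reads in PA1x and 405, 345 and 543 in PA2x (log2 fold change 1.49 ± 0.25 SE, adjusted p = 0.000567). ABA8ox1 (Os02g0703600), which degrades the hormone, had 221, 263 and 288 and 553, 510.4 and 623 (log2 fold change 1.13 ± 0.15 SE, adjusted p = 8.69e-05). Mock lay between the group means in each, at 244 to 314 and 382 to 546. The remaining 5 members did not pass, among them NCED5 (log2 fold change 1.16, adjusted p = 0.0753) and ZEP (0.12, 0.844), genes of synthesis, and ABA8ox2 (0.04, 0.957), a gene of breakdown. The starvation-induced amylase gene RAmy3D (Os08g0473900) rose 3.18-fold from 8.06, 6.64 and 10.9 to 19.3, 38.2 and 32.2 (log2 fold change 1.67 ± 0.33 SE, adjusted p = 0.00266). It was the 1 call among 6 fermentation and starvation genes, 16.7% against 11.3% of all tested genes.

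Transport and nutrient genes held 3 of the 5 lower calls in the lists. The plasma membrane aquaporin gene PIP2;4 (Os07g0448100) had 3288, 3349 and 3376 normalised reads in PA1x and 1828, 2361 and 2046 in PA2x (log2 fold change -0.69 ± 0.12 SE, adjusted p = 0.00102). PIP2;3 (Os04g0521100) had 9918, 10794 and 11281 and 7322, 7182 and 9320.05 (log2 fold change -0.43 ± 0.13 SE, adjusted p = 0.0403), and it lost its call on removal of any PA library but PA2x replicate 3 (0.0624 to 0.165). Of 12 tested aquaporins 11 had negative values and 2 were called, against a share of 2.96% lower among all tested genes. The number was 4 without PA2x replicate 3 (3.37% of all genes), 1 without replicate 3 of both groups (1.49%) and 6 at equal library sums (6.19%).

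IRO3 (Os03g0379300), a transcription factor gene that restrains the iron deficiency response, had 146, 157 and 169 normalised reads in PA1x and 81.5, 65.8 and 88.6 in PA2x, with mock between at 104 to 129 (log2 fold change -1.001 ± 0.20 SE, adjusted p = 0.00266). It was the 1 call among 11 iron genes, all with negative values. That share, 9.09%, was near the 11.3% of all tested genes that were called. Genes called lower were 2.96% of all tested genes. IRO2 (Os01g0952800) and DMAS1 (Os03g0237100) were near the threshold (adjusted p = 0.0515 and 0.0543). They passed as lower under TMM scaling, an alternative named below (0.0407 and 0.0441), where 3.26% of all tested genes were lower. The abundant iron transporter gene IRT1 (Os03g0667500) was at 8475, 11297 and 9856 and 9301, 4702 and 8565, with PA2x replicate 2 alone far below the rest (log2 fold change -0.44 ± 0.31 SE, adjusted p = 0.46). The same library was the lowest in GS1;2 (Os03g0223400), a glutamine synthetase gene, at 5716, 1963 and 3807 in PA2x against 3967, 4505 and 4180.5 in PA1x (log2 fold change -0.27 ± 0.29 SE, adjusted p = 0.668). None of the 12 nitrogen genes was called, against 11.3% of all tested genes. NRT2.1 (Os02g0112100), a nitrate transporter gene, had the value farthest from 0 (log2 fold change -0.96, adjusted p = 0.451). Its values were 42.7, 39.8 and 38.9 in PA1x and 51.9, 5.31 and 28.2 in PA2x, and the log2 fold change was -0.077 without PA2x replicate 2 and -1.61 without PA2x replicate 1. At equal library sums 3 of 12 nitrogen and 3 of 11 iron genes were lower, against 6.19% of all tested genes on that scale.

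PT8 (Os10g0444700), a phosphate transporter gene, was higher, with 2301, 2565 and 2437 normalised reads in PA1x and 4083, 3269 and 4267 in PA2x (log2 fold change 0.66 ± 0.13 SE, adjusted p = 0.00204). The remaining 6 phosphate genes had negative values without a call. The share called in this list, 14.3%, was near the 11.3% of all tested genes. RR2 (Os02g0557800), a cytokinin-induced response regulator gene, was lower, at 278, 263 and 325 against 175, 152 and 215 (log2 fold change -0.68 ± 0.15 SE, adjusted p = 0.00484). None of the 8 clock genes and none of the 7 catalase, peroxidase and superoxide dismutase genes was called, against 11.3% of all tested genes. The largest values among them were -0.29 for the clock gene PRR95 (Os09g0532400) and -1.16 for the catalase gene CatC (Os03g0131200), with adjusted p = 0.507 and 0.0924. Without PA2x replicate 1, CatC was at -1.56 (adjusted p = 0.0303). CatA (Os02g0115700) had 394, 406 and 448 in PA1x and 256, 280.2 and 382 in PA2x, above the mock values of 151, 121 and 218 in all 6 PA libraries (log2 fold change -0.46 ± 0.26 SE, adjusted p = 0.338).

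**Figure D5:**
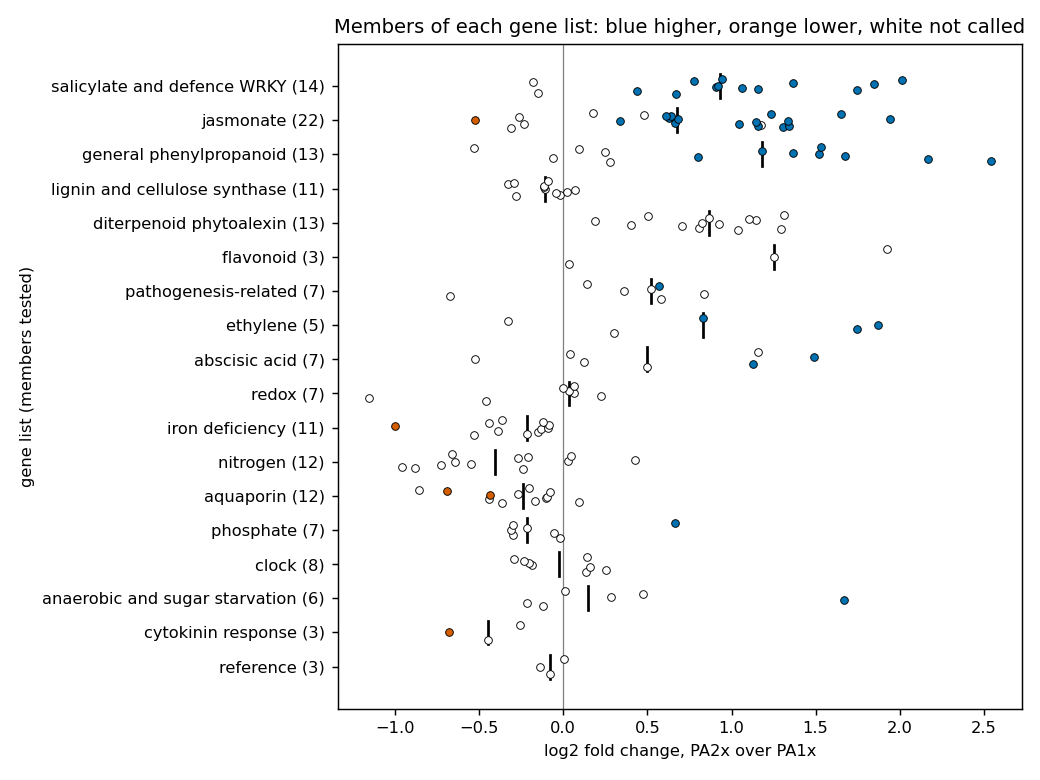
Log2 fold change of PA2x over PA1x (horizontal axis) for the tested members of 18 gene lists (vertical axis, number tested in parentheses), with blue points called higher, orange points called lower, white points not called and black bars at list medians. The general phenylpropanoid list has a median of 1.18, the salicylate and WRKY list 0.93 and the jasmonate list 0.68, against -0.02 over all tested genes. Medians of the flavonoid list, 1.25, and the diterpenoid list, 0.87, are also high, without a call in either. The ethylene list has a median of 0.83.

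The mock mean fell between the PA1x and PA2x means in 11 of the 12 called salicylate and WRKY members, in 15 of the 16 called jasmonate members and in all 8 called phenylpropanoid members. Over all 2065 called genes it did so in 94%, so that these counts say nothing particular to the lists, and choosing genes for a difference between PA1x and PA2x favours such a place for a group in between. The exceptions among all called list members were WRKY62, JAR1 and Cht8, with mock below both, and ACS1, with mock above both. In the same fit against mock, 6, 5 and 5 members of these 3 lists were lower in PA1x (3.13% of all genes were), 0, 1 and 0 were higher in PA1x (0.399% were), and 5, 3 and 1 were higher in PA2x (0.764% were). These contrasts share the PA1x, PA2x and mock libraries with each other and with the comparison above, so they describe the same levels from another side. WRKY45, WRKY28, JAZ13 and PAL4 passed in each of them, lower than mock in PA1x (adjusted p = 0.0148, 0.00989, 0.00222 and 0.00749) and higher in PA2x (0.0353, 0.0102, 0.00949 and 0.0321). WRKY76 and JAR1 were higher than mock in PA2x (adjusted p = 9.02e-06 and 0.00352) and did not pass in PA1x (0.455 and 0.929).

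Outside the lists, among called genes with a mean of at least 20 and groups that did not overlap, Os07g0418500 rose most, from 31.4, 46.5 and 30.8 normalised reads to 343, 297 and 335 (log2 fold change 3.15 ± 0.23 SE, adjusted p = 6e-07), with mock at 42.2 to 50.4. Os01g0882000 followed, from 4.83, 2.95 and 5.43 to 24.4, 36.1 and 73.8 (log2 fold change 2.96 ± 0.35 SE, adjusted p = 3.09e-05). Mock overlapped PA1x in the former and PA2x in the latter. Os12g0594950 fell most, from 120.03, 106 and 91.4 to 18.3, 10.6 and 28.2 (log2 fold change -2.51 ± 0.30 SE, adjusted p = 3.63e-05), and Os01g0647000 went from 62.8, 71.6 and 79.7 to 18.3, 13.8 and 9.39 (log2 fold change -2.32 ± 0.24 SE, adjusted p = 9.42e-06). In these 2 genes mock lay between the groups, at 45 to 64.3 and 26 to 33.3. The deposited table gives these identifiers without names.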

How the data were processed

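The authors deposited 1 table of normalised counts for 15 root libraries, whose values are a signal of reads divided by 1 size factor per library. Per the submitters' processing notes, reads went through tools that include the aligner STAR 2.6.1d, the trimmer Trimmomatic 0.38, FastQC 0.11.8 and DESeq2. Whether counting used strand, and which build and gene models it used, is not given in the sources here, so reads of overlapping, antisense or near-identical genes may be shared.

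No column belonged to another sample. Dividing each library by its smallest step gave whole reads at 100% of values (tolerance 0.1 read), and these reads give the depths. Genes with a mean of at least 5 were tested on log2(value + 1) with limma 3.58.1 (trend, group as the single factor, 15 libraries in 1 fit, R 4.3.3) and Benjamini-Hochberg adjustment at 0.05. Fold changes on this scale understate changes of low genes. A level of 3 reads per library was taken as the floor, which covers counting error only. No pair of replicates agreed within sampling noise.

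The members and lists were chosen with earlier results of these data known. Named were up to 6 called members per list by adjusted p, all PAL and C4H genes, WRKY45, NPR1, PR1a, the largest value in a list without calls, and the 2 highest and 2 lowest genes outside the lists. The further called members and AOS2, MYC2, COI1a, COI2, JAZ3, JAZ8, WRKY13, WRKY78, 4CL1, 4CL3, 4CL4, COMT1, MAS, CHS1, CYP76M8, DPF, NCED5, ZEP, ABA8ox2, PBZ1, IRT1, IRO2, DMAS1, GS1;2 and CatA were chosen after their values were seen. Gene names come from general knowledge. Of 186 members 135 had a RefSeq namesake (ASM3414082v1) on the same chromosome at a similar place in gene order (within 5%), 46 had no namesake and 5 had one elsewhere. Gene order replaced linear position, which had matched 107 within 10%, after that result was seen. Names without a matching namesake, among them WRKY45, WRKY28, WRKY70, MYC2, NOMT, PR1a, NCED4, CatC and the PAL and C4H genes, are less certain than their identifiers.

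Alternatives were DESeq2 1.42.0 and edgeR 4.0.16 on the recovered reads, TMM scaling, other filters and pseudocounts, the 6 PA libraries alone, thinned reads, a replicate block and leaving out each library. Scaling to equal sums, and leaving out both libraries numbered 3, were added after the data were seen.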

Additional observations from a re-analysis of the deposited data

How the results depend on the processing

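The number of genes called higher stayed between 1115 and 1952 under every alternative run, within 1.5 times the 1522 reported, and no gene called changed sign in any of them. The number called lower, 543, was 1134 at equal library sums, 272 without both libraries numbered 3 and 257 to 617 when 1 library was left out. The number of calls in all was 2114 with DESeq2, 2134 with edgeR's quasi-likelihood test, 2088 with TMM scaling, 1858 without a filter, 1776 on thinned reads and 1385 to 2327 with 1 library left out. Of the 52 called genes that the text names, 38 passed under all 19 alternatives and 14 did not pass in at least 1. The diterpenoid list, with 0 calls, had 0 to 2 with 1 library left out and 10 with a replicate block in the 6 PA libraries alone. In that block fit 10.7% of all tested genes were higher. RCc3, not called, had a log2 fold change of 0.05, of -0.11 at equal sums and of -0.076 to 0.20 with 1 library left out. The cause was not tested.

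Replicate numbers are shared between groups. Same-numbered PA1x and PA2x libraries deviated together with correlations of 0.01, 0.05 and 0.24 for numbers 1, 2 and 3. Libraries numbered 3 correlated at -0.17 to -0.12 with those numbered 1 and 2 of the other group, and numbers 1 and 2 with each other at 0.13. Deviations were taken from group means and cancel out within each group. A positive value for 1 pair therefore brings negative values for others, so these correlations are not separate observations. The numbers were not taken as pairs, and whether the libraries numbered 3 had a condition in common was not tested. With the number as a block 2177 genes were called, 1610 higher and 567 lower, and 2739 in the 6 PA libraries alone. That fit of the 6 libraries also called PR1a (adjusted p = 0.00824), NOMT (0.0469), CESA9 (0.0434) and KSL10 (0.000647), which the 15-library block did not. Depth limits low genes: 3 reads are 2.21 to 4.03 normalised reads in the PA libraries.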
